A study of Mus musculus with 6 samples.

Results

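The insulin-like growth factor (IGF) axis was described from 10 genes: the ligand gene Igf1, the receptor genes Igf1r and Insr, and the binding protein genes Igfbp1 to Igfbp7. Members were the non-control probes whose gene name in the array files equals one of these symbols, which gave 16 of the 41174 probes. All 16 probes passed the background filter, and none was saturated on any array. Kidneys of CD1 mouse embryos were dissected at E13.5, grown on filters and treated for 6 hours with 2.0 µg/ml Scriptaid or 2.0 µg/ml Nullscript. Scriptaid is a hydroxamic acid inhibitor of histone deacetylases (HDACs), and Nullscript is its inactive relative. Both groups are cultured organs of a strain with no engineered allele in the labels, and paired kidneys were divided between the drugs. How many embryos went into a replicate was not stated in the labels used. RNA of both drugs was hybridised together on 2-colour Agilent arrays, 3 replicates with 2 arrays each and the dyes exchanged.

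IGF-1 and the related IGF-2 are secreted growth factors that bind the IGF-1 receptor, a tyrosine kinase that closely resembles the insulin receptor and passes its signal through insulin receptor substrate proteins to the PI3K and Akt kinases. The binding proteins hold the ligands outside the cell, prolong their life and keep them from or deliver them to the receptor, and several also act on cells without a ligand. In the developing kidney the axis is known as a growth pathway, with ligands and binding proteins made by several of its compartments.

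The promoters of the genes with the 3 largest ratios by brightest probe (Igfbp5, Igfbp1 and Igfbp3) and of Igfbp2, the gene that passed on the other side, are shown because they differ in composition. They are RefSeq sequences of GRCm38.p6, and the labels name no build for the array design. Each run holds the 200 bases before the start site, and capitals mark matches to 3 motifs searched on both strands over the 250 bases before the start. These were CAAAACAA, a core of the insulin response element known from Igfbp1, the GC box GGGCGG, and the TATA box TATAAA.
Igfbp5 promoter, chr1:72874866-72875065, minus strand: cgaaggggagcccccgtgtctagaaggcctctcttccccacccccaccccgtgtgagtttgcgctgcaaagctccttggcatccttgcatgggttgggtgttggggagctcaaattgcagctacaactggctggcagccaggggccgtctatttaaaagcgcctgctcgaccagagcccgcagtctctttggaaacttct
Igfbp1 promoter, chr11:7197587-7197786, plus strand: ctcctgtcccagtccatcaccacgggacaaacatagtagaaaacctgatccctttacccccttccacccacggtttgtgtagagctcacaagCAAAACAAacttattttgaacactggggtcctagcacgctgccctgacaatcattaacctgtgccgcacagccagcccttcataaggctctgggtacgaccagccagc
Igfbp3 promoter, chr11:7213924-7214123, minus strand: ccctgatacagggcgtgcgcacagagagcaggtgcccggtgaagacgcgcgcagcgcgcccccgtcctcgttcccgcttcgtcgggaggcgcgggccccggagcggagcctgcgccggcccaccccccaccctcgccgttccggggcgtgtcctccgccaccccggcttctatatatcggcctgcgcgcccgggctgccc
Igfbp2 promoter, chr1:72824280-72824479, plus strand: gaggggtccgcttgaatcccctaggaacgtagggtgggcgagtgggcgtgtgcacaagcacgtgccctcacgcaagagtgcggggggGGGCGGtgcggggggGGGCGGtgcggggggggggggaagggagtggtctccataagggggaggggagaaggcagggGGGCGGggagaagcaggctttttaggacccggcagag
The Igfbp1 promoter held CAAAACAA, which begins 108 bases before the start, and 2.21% of the 32851 promoters in the table hold this motif. No other promoter of the 9 members with an entry had a match to it. Igfbp2 had 3 GC boxes in its first entry and none in its second, Igfbp7 had 4 and Igf1r had 2, against 32.7% of all promoters with at least 1. The TATA box letters were found in Igfbp4 and Igfbp6, and in 12.4% of all promoters. Upstream GC content was 53.2% for Igfbp1, 58.8% for Igfbp5, 73.2% for Igfbp3 and 67.2% for Igfbp2, against a median of 52.4%. A match is a description of these letters and not a measured site.

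Values are log2 ratios, Scriptaid-labelled over Nullscript-labelled, and which drug each channel truly held remains in doubt. The dye fields of the arrays set the sign. With that sign, 6 of 6 genes that other cells raise under HDAC inhibitors were lower in the Scriptaid-labelled channel, and 4 of 4 that other cells reduce were higher. Over all gene names, 23.1% were lower and 22.2% higher. The genes of this check were chosen with earlier results of these data known, so it is not an independent one. The linker histone gene Hist1h1c had a log2 ratio of -1.72 ± 0.06 and Cdkn1a, the p21 gene, -0.91 ± 0.16 (SD, n = 3), while the cyclin gene Ccnd1 had 1.90 ± 0.19. Exchanged drug names would turn each sign given here. Between 91.5% and 96.5% of non-control spots per channel were well above background, and precision is limited by the number of replicates, 3. All 8 kidney progenitor and bud markers, among them Six2, Wt1, Pax2 and Ret, were well above background in both channels of all 6 arrays.

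The 10 members, which leave out Igf2 and Igf2r, lay mainly on the side of the Scriptaid-labelled channel. They were chosen with earlier results of these data known. By the brightest probe of each gene, 6 of the 10 members were higher in the Scriptaid-labelled channel (Igf1, Igfbp1, Igfbp3, Igfbp5, Igfbp6 and Igfbp7), 1 was lower (Igfbp2) and 3 did not pass (Igf1r, Insr and Igfbp4), at a limma adjusted p under 0.05. Over the brightest probes of all gene names, 45.3% passed, 22.2% as higher and 23.1% as lower. Of the 16 member probes, 10 passed as higher and 1 as lower, against 23.5% and 21.8%, together 45.2%, of the 39405 probes tested. The median log2 ratio was 0.26 over the member probes and -0.0036 over all probes tested. At least 2-fold differences were found for 4 member probes, of Igf1, Igfbp1, Igfbp3 and Igfbp5, against 1.54% of all probes tested in that direction. The binding proteins spanned the widest range, from Igfbp2 at -0.27 to Igfbp5 at 1.99, while the receptors stayed within 0.05 and 0.24.

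**Figure D1:**
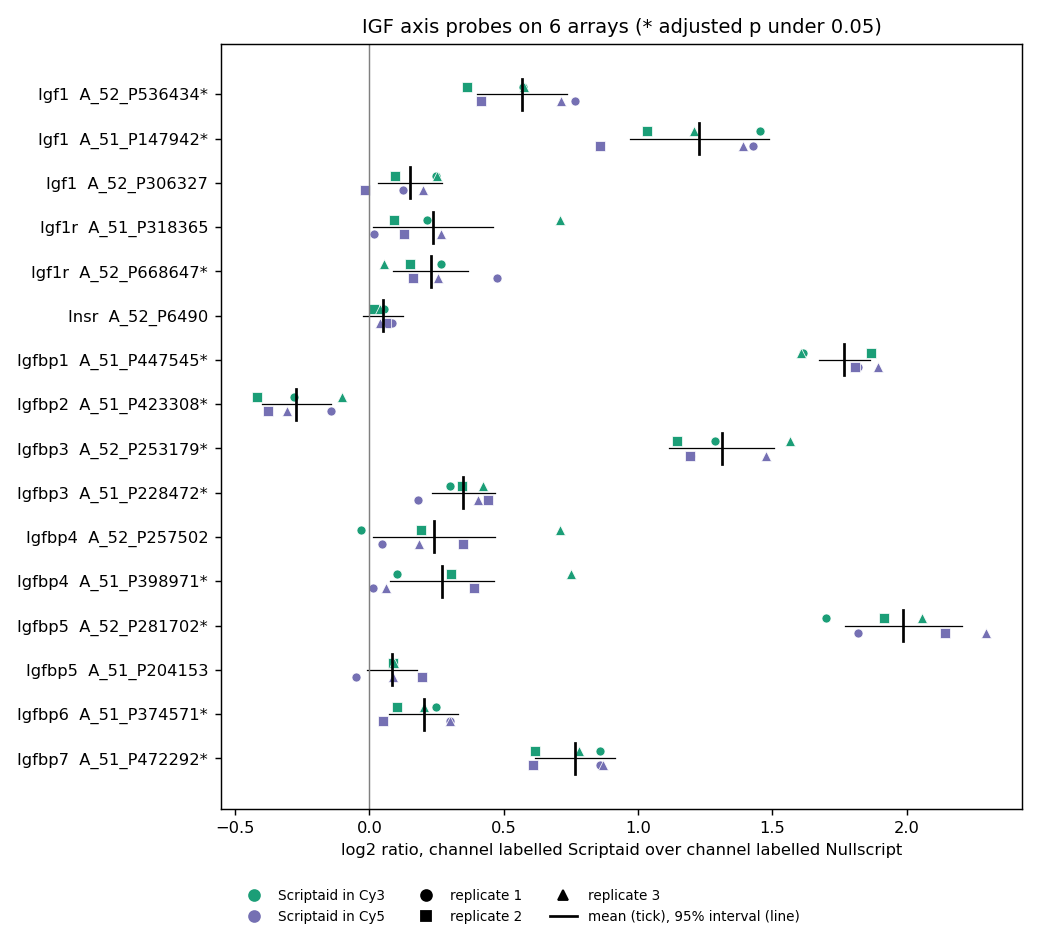
Log2 ratio, Scriptaid-labelled over Nullscript-labelled, on each of the 6 arrays, for the 16 member probes. Colour gives the dye of Scriptaid and shape the replicate, ticks are means over 3 replicates and thin lines their 95% limma intervals. Igfbp5, Igfbp1, Igfbp3 and Igf1 each have a probe at 0.86 or more on every array, Igfbp2 is below 0 on every array, and the probes of Igf1, Igfbp3 and Igfbp5 stand apart from each other.

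Igf1, the circulating and local growth factor of the axis, was higher in the Scriptaid-labelled channel by 2 of its 3 probes. Probe A_51_P147942, which carries another transcript accession than the brightest probe and was spotted 10 times on every array, had log2 ratios of 1.46, 1.03 and 1.21 on the arrays of replicates 1, 2 and 3 with Scriptaid in Cy3. On the arrays with Scriptaid in Cy5 it had 1.43, 0.86 and 1.39. Replicate 2 was the lowest in both dye orientations, and the mean was 1.23 ± 0.26 (SD, n = 3), or 2.34-fold (limma adjusted p = 0.000771). Its 10 spots varied within an array by an SD of 0.04 to 0.07, which measures the spotting and not the spread between replicates. The brightest Igf1 probe, A_52_P536434, had 0.57, 0.36 and 0.58 with Scriptaid in Cy3 and 0.76, 0.42 and 0.71 with Scriptaid in Cy5. Its mean was 0.57 ± 0.15, or 1.48-fold (limma adjusted p = 0.00203), and its highest array lay below the lowest array of the 10-spot probe. Both of these Igf1 probes had replicate levels that did not overlap between the drugs. The remaining probe, A_52_P306327, was well above background on 5 of 6 arrays for Scriptaid and 4 for Nullscript, and its ratios ran from -0.02 to 0.25. Its mean of 0.15 ± 0.10 did not pass (limma adjusted p = 0.0514, and 0.0145 in the fit of 6 arrays with the replicate as a block). By the scanner software's own signals it had 0.56 (adjusted p = 0.0391), and with median centring -0.042, where the sign turns. It also passed on the arrays with Scriptaid in Cy3 alone (0.20, adjusted p = 0.0324) and without replicate 2 (0.21, adjusted p = 0.0212). It did not pass with Scriptaid in Cy5 alone (0.10, adjusted p = 0.193), without replicate 1 (0.13, adjusted p = 0.144) or without replicate 3 (0.11, adjusted p = 0.255).

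**Figure D2:**
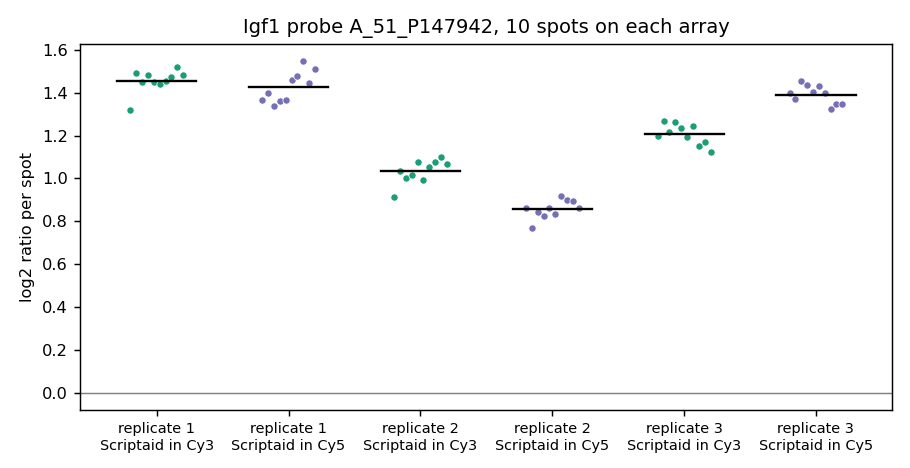
Log2 ratio of each of the 10 spots of the Igf1 probe A_51_P147942 on each array, coloured by the dye of Scriptaid, with the array mean as a line. Spots of an array lie close together (SD 0.04 to 0.07), and the lowest array mean, 0.86, belongs to replicate 2 with Scriptaid in Cy5.

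The receptors differed little. Insr, the insulin receptor gene, had log2 ratios between 0.02 and 0.08 on the 6 arrays and a mean of 0.05 ± 0.02 (SD, n = 3), which did not pass (limma adjusted p = 0.238). The 95% interval of its ratio, from -0.03 to 0.12, bounds the difference on this scale. Igf1r, the main signalling receptor of both IGFs, had 0.21, 0.09 and 0.71 on the arrays of replicates 1, 2 and 3 with Scriptaid in Cy3 by its brightest probe A_51_P318365. With Scriptaid in Cy5 it had 0.02, 0.13 and 0.27. One array, of replicate 3, thus lay far above the others, and the mean of 0.24 ± 0.22 did not pass (adjusted p = 0.0814). The same Igf1r probe passed with the replicate as a block (adjusted p = 0.0392). With the slide as a block it had 0.30, a fit in which replicate 3 stood alone on its slide. Median centring also brought it past the threshold (0.33, adjusted p = 0.0319). Without replicate 3 it had 0.11 and did not pass (adjusted p = 0.156). The mean over both Igf1r probes, a value for the gene and not for this probe, passed (0.23, adjusted p = 0.00844). The other Igf1r probe, A_52_P668647, had 0.23 ± 0.12, which is 1.17-fold, and passed (limma adjusted p = 0.0238). That call was lost without replicate 3 (0.26, adjusted p = 0.0694), with the slide as a block (0.21, adjusted p = 0.0748), on the arrays with Scriptaid in Cy3 alone (0.16, adjusted p = 0.0808) and with median centring (0.09, adjusted p = 0.266).

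Igfbp5, which binds to the matrix as well as to IGFs, had the largest ratio of the axis by its brightest probe after loess. The order turned with the scanner software's own signals, where Igfbp5 had 1.97 and Igfbp1 2.29, and with the mean over the probes of a gene, where Igfbp5 had 1.04 and Igfbp1 1.77. Probe A_52_P281702 had log2 ratios of 1.70, 1.91 and 2.06 on the arrays of replicates 1, 2 and 3 with Scriptaid in Cy3, and 1.82, 2.14 and 2.30 with Scriptaid in Cy5. Its normalised log2 level was 11.27, 11.25 and 10.90 in the Nullscript-labelled channel and 13.03, 13.28 and 13.07 in the Scriptaid-labelled channel, with no overlap. The mean ratio was 1.99 ± 0.21 (SD, n = 3), or 3.97-fold (limma adjusted p = 0.000225), and 16 of the 39405 probes tested had a larger one. The second Igfbp5 probe, A_51_P204153, carries the same transcript accession in the array files and did not share this difference. It ran from -0.05 to 0.19, with a mean of 0.08 ± 0.06 (95% interval -0.01 to 0.18), and did not pass (adjusted p = 0.126). Such disagreement between probes was common on these arrays: of 326 gene names with several tested probes whose brightest one passed with at least a 2-fold difference, 133, or 40.8%, had another probe under 0.25 in the same direction.

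Igfbp1, a liver and decidua binding protein known for its control by insulin through the element marked above, came next. Its only probe had log2 ratios of 1.61, 1.87 and 1.61 on the arrays of replicates 1, 2 and 3 with Scriptaid in Cy3 and 1.82, 1.81 and 1.89 with Scriptaid in Cy5. Its levels were 7.45, 8.34 and 7.36 in the Nullscript-labelled channel and 9.16, 10.18 and 9.11 in the Scriptaid-labelled channel, so that replicate 2 was the highest for both drugs while its ratio was like those of the others. The mean ratio was 1.77 ± 0.06 (SD, n = 3), or 3.41-fold (limma adjusted p = 0.000184), and 38 probes had a larger one. Since Igfbp1 is best known from the liver, liver markers were set beside it: among 4 liver genes measured, none passed as higher and 1, the fetal protein gene Afp, was lower. Their summed intensity ran from 724 to 1487 in the Scriptaid-labelled channel and from 778 to 1605 in the Nullscript-labelled channel. On every array 3 of the 4 were well above background, a mark that most spots carried. Mean normalised log2 intensity was 9.13 for Afp and lower for Alb, Apoa1 and Ttr (7.59, 6.97 and 6.25), so these markers were dim. The Igfbp1 probe itself had 8.59, and the part of liver tissue in its ratio was not tested.

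Igfbp3, the main carrier of IGFs in blood, was higher in the Scriptaid-labelled channel by both probes, by different amounts. Probe A_52_P253179 had log2 ratios of 1.29, 1.15 and 1.57 on the arrays of replicates 1, 2 and 3 with Scriptaid in Cy3 and 1.20, 1.19 and 1.48 with Scriptaid in Cy5. Its mean was 1.31 ± 0.19 (SD, n = 3), or 2.48-fold (limma adjusted p = 0.000348). Its levels were 11.83, 11.87 and 11.60 in the Nullscript-labelled channel and 13.07, 13.04 and 13.12 in the Scriptaid-labelled channel, which do not overlap. Probe A_51_P228472 had 0.18 to 0.44 over the arrays and a mean of 0.35 ± 0.10 (adjusted p = 0.00317), and none of its arrays reached the lowest array of the first probe. The mean over both probes was 0.83.

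Igfbp7, a relative with low affinity for IGFs that is abundant around blood vessels, had log2 ratios of 0.86, 0.61 and 0.78 with Scriptaid in Cy3 and 0.86, 0.61 and 0.87 with Scriptaid in Cy5. Its mean was 0.76 ± 0.13 (SD, n = 3), or 1.70-fold (limma adjusted p = 0.000626), and its replicate levels did not overlap between the drugs. Replicate 2 had the smallest ratio, as for Igf1. Igfbp6, which prefers IGF-2, had 0.05 to 0.30 over the 6 arrays and a mean of 0.20 ± 0.11, or 1.15-fold (adjusted p = 0.0257), with overlapping levels. The Igfbp6 call was lost without replicate 1 (0.16, adjusted p = 0.0784), without replicate 3 (0.18, adjusted p = 0.150) and with the slide as a block (0.21, adjusted p = 0.0638).

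Igfbp4, known mainly as an inhibitor of IGF action, was not settled. Its brightest probe, A_52_P257502, ran from -0.03 to 0.71 over the arrays, with a mean log2 ratio of 0.24 ± 0.22 (SD, n = 3) that did not pass (limma adjusted p = 0.0818). Leaving out replicate 1 brought it past the threshold (0.36, adjusted p = 0.00846), as did median centring (0.33, adjusted p = 0.0242). With the slide as a block, where replicate 3 stood alone on its slide, it had 0.29. It had 0.14 without replicate 3 (adjusted p = 0.31) and 0.23 without replicate 2 (adjusted p = 0.215), and passed in neither. The mean over both Igfbp4 probes, a value for the gene, passed (0.26, adjusted p = 0.0466). The second probe, A_51_P398971, ran from 0.01 to 0.75, with a mean of 0.27 ± 0.19 (adjusted p = 0.0386). That call was lost without replicate 2 (0.23, adjusted p = 0.140), without replicate 3 (0.20, adjusted p = 0.187), with the slide as a block (0.30, adjusted p = 0.0507) and on the arrays of either dye orientation alone (adjusted p = 0.0615 and 0.172). For both Igfbp4 probes the array of replicate 3 with Scriptaid in Cy3 was the highest, as for the brightest Igf1r probe.

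Igfbp2, a binding protein of embryonic epithelia, went the other way. It had log2 ratios of -0.28, -0.42 and -0.10 on the arrays of replicates 1, 2 and 3 with Scriptaid in Cy3 and -0.14, -0.38 and -0.31 with Scriptaid in Cy5, so that all 6 arrays lay below 0. The mean was -0.27 ± 0.11 (SD, n = 3), or 1.21-fold higher in the Nullscript-labelled channel (limma adjusted p = 0.00966). Its levels of 13.19, 12.91 and 12.98 with Scriptaid and 13.40, 13.30 and 13.19 with Nullscript overlapped at the edge. With median centring in place of loess it had -0.17 and did not pass (adjusted p = 0.0829). Igfbp2 and Igfbp5 are next to each other on chromosome 1 in the RefSeq annotation, as Igfbp1 and Igfbp3 are on chromosome 11, with no annotated gene starting between them. Igfbp1 and Igfbp3 thus had ratios of the same sign and Igfbp2 and Igfbp5 of opposite signs by their brightest probes.

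**Figure D3:**
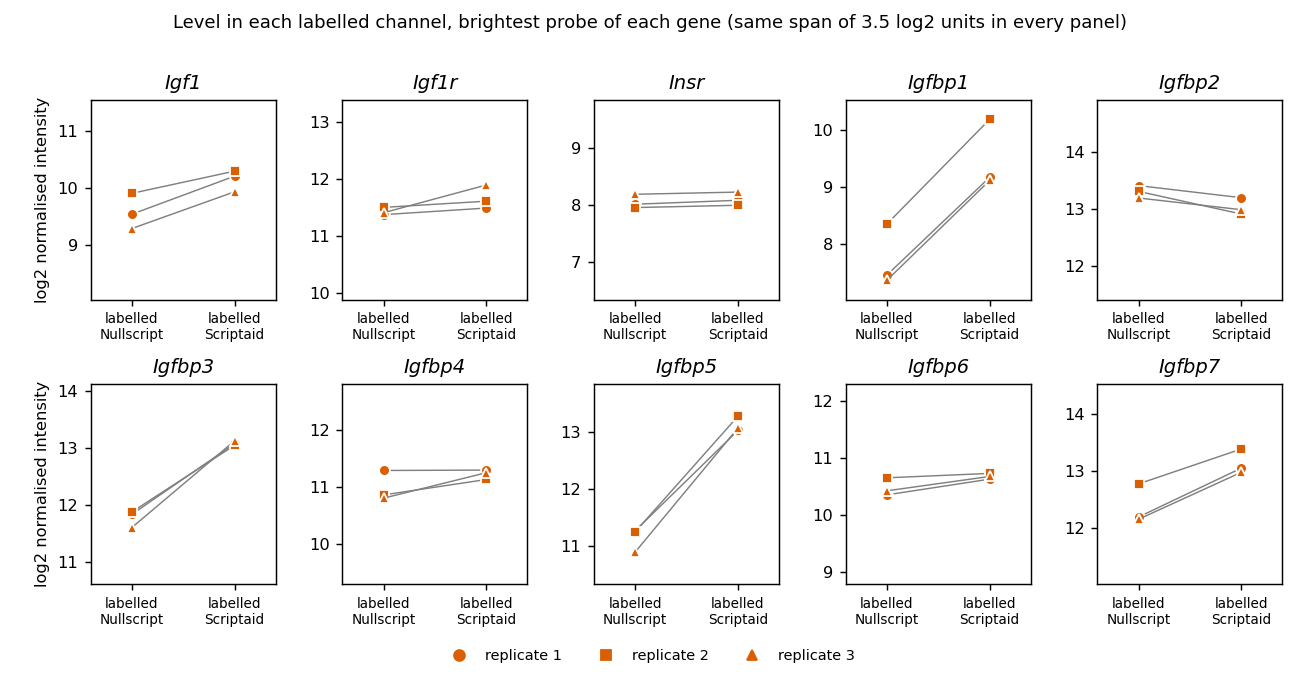
Normalised log2 intensity of the brightest probe of each member in the 2 labelled channels, 1 point per replicate (mean of its 2 arrays), with a line joining the channels of a replicate. Every panel has the same span in log2 units, set around its own level, and levels of different genes are not comparable. Igfbp1, Igfbp3 and Igfbp5 climb steeply in each replicate, Igfbp2 falls slightly in each, and Insr and Igf1r are nearly flat, apart from replicate 3 of Igf1r.

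Across the members, 7 of 16 probes had replicate levels that did not overlap between the drugs, against 32.9% of all probes tested. None of the 16 had a dye effect that passed (adjusted p from 0.328 to 0.985), where 3.82% of all probes did.

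Markers of endothelium, stroma, and kidney progenitors and bud lay mainly on the side of the Scriptaid-labelled channel. Over all gene names, 22.2% were higher and 23.1% lower. Of 7 endothelial markers, 6 were higher with the Scriptaid label and none was lower. The largest ratios were those of Esam, 1.07 ± 0.21, and Emcn, 1.02 ± 0.24 (log2, SD, n = 3). By their other probes Pecam1 had 0.003 and Kdr 0.03, while Cdh5 had 0.80 and Tek, which did not pass by its brightest, 0.48. Their summed intensity was 20575 to 21158 in the Scriptaid-labelled channel and 11769.8 to 13984 in the Nullscript-labelled channel. Of 7 stromal markers, 6 were higher and Col1a1, saturated on 5 arrays, was lower. By other probes Pdgfra had 0.12 and Col3a1 0.07 to 0.11, while Foxd1 had 0.55 and Meis1 0.30. The stromal sums were 119411 to 128016 and 101061 to 115362 with the saturated Col1a1 probe, and 75469 to 82939 and 47152 to 55081 without it. The sums of the kidney progenitor and bud list, with 5 of 8 higher and none lower, were 28225 to 31178 and 15435 to 16145. Pax2, Ret and Wnt11 of this list did not pass, with 0.08, -0.01 and 0.11. Eya1 had 1.64, with 0.48 by its other probe. The macrophage list had 1 of 4 higher and 1 lower, and the adrenal list none higher and 1 of 4 lower, with overlapping sums. The higher macrophage marker, Ptprc, had 1.07, with -0.11 to 0.15 by other probes. The part of these cells in the IGF axis values was not tested, and in whole kidneys fewer cells of a type and less RNA per cell cannot be told apart.

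The other genes of the pathway were taken from 6 lists by role, and were nearly even between the directions. Of 64 measured, 21 were higher with the Scriptaid label and 19 were lower, with a median log2 ratio of -0.0034, against 22.2% and 23.1% over all gene names.

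Among the other ligands and receptors, 1 of 8 was higher and 4 were lower, the saturated Igf2 probe included, with a median log2 ratio of -0.34. The 1 higher call was lost without replicate 1 and without replicate 3. Igf2, the main fetal IGF, was at saturation by its brightest probe, on 6 arrays for Scriptaid and 5 for Nullscript, so no ratio is given. Its other probe, saturated on 2 arrays for each drug, had -0.21 ± 0.16 (SD, n = 3) and did not pass (limma adjusted p = 0.0556). Igf2r, the receptor that clears IGF-2, had -0.37 ± 0.35 and did not pass (adjusted p = 0.0815, and 0.0204 in the fit with the replicate as a block). Igf2r had -0.22 without replicate 1 (adjusted p = 0.214), whereas the arrays with Scriptaid in Cy3 alone (-0.56, adjusted p = 0.0209) and the fit without replicate 2 (-0.57, adjusted p = 0.007) brought it past the threshold. The relaxin family genes Insl6, at -2.19 ± 0.16, and Rln1, at -1.21 ± 0.25, were lower, as was Insl3, at -0.30 ± 0.08 (adjusted p = 0.000209, 0.000752 and 0.00405). The hormones of Rln1 and Insl3 signal through other receptors than the IGFs.

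Among relatives of the binding proteins and the proteases that cut them, 6 of 14 were higher and 3 were lower. Pappa, the metalloprotease that releases IGFs from the Igfbp4 and Igfbp5 proteins, had a log2 ratio of 1.71 ± 0.20 (SD, n = 3), or 3.28-fold, with 1.18 by its other probe (limma adjusted p = 0.000246). Htra1, a serine protease reported to cut binding proteins, had the most negative ratio of these lists, -2.82 ± 0.28 (adjusted p = 0.000216). Esm1, a proteoglycan of endothelial cells with an Igfbp-like domain, had 2.22 ± 0.34, and Ctgf, a matrix protein of the CCN family, 0.79 ± 0.06. The 3 genes of the IGF2 mRNA-binding proteins, which bind Igf2 and other transcripts, were all higher. Igf2bp2 had 1.42 ± 0.22, Igf2bp1 0.97 ± 0.18 with 0.61 to 0.83 by other probes, and Igf2bp3 0.53 ± 0.09 with 0.61 to 0.62 by other probes.

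Inside the cell the lists split. Of 11 receptor adaptors measured, 2 were higher and 4 were lower (without replicate 3, 2 were lower), and Irs2 was not measured. Irs1, which docks PI3K to the receptors, had a log2 ratio of 1.07 ± 0.11 (SD, n = 3), or 2.10-fold, with 0.46 by its other probe (limma adjusted p = 0.000256). Grb10, an imprinted inhibitor of both receptors, had 0.78 ± 0.07 with 0.58 to 0.91 by other probes, while Grb2, the adaptor towards Ras, had -0.76 ± 0.06 and Dok1, a docking protein, -0.36 ± 0.26 with -0.24 by its other probe, a call lost without replicate 1, without replicate 3 and on the arrays with Scriptaid in Cy3 alone. In the PI3K, Akt, FoxO and mTOR arm, 4 of 22 were higher and 7 were lower, with a median of -0.0067 (without replicate 3, 2 were higher). The kinase genes Akt2 and Akt1 had 0.84 ± 0.13 and 0.60 ± 0.10, with 0.49 and 0.29 by their other probes. Foxo1, the transcription factor that Akt keeps out of the nucleus, had -0.63 ± 0.03, with -0.50 by its other probe. Tsc2, a brake on mTOR, had -0.48 ± 0.09. Of 6 genes of the growth hormone arm, which drives Igf1 in liver, 5 were higher and 1, Stat5a, was lower, with a median of 0.46. Socs2, counted as higher at 0.36, had -0.25 by its other probe. The part of this arm in the Igf1 ratios was not tested. Cish, a feedback inhibitor, had 0.81 ± 0.05, the receptor gene Ghr 0.60 ± 0.21 with 0.16 to 0.43 by other probes, Jak2 0.47 ± 0.18 with 0.17 by its other probe, and Stat5b 0.44 ± 0.03, with -0.04 to -0.01 by other probes.

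**Figure D4:**
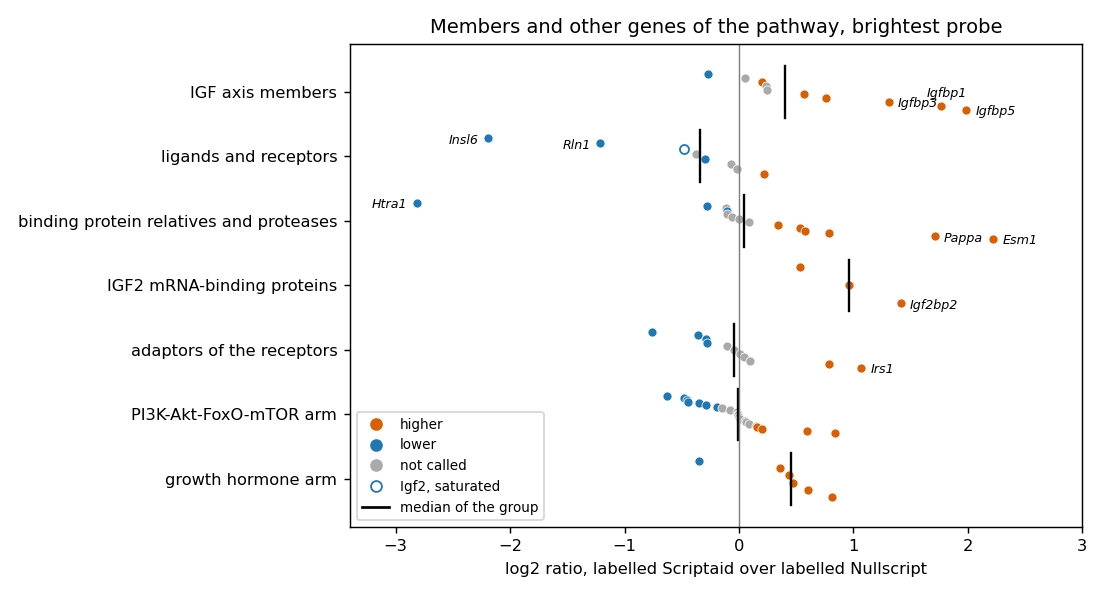
Log2 ratio of the brightest probe of each gene, for the 10 members and the 6 lists of other pathway genes, coloured by the limma call at an adjusted p under 0.05, with the list median as a line and an open circle for the saturated Igf2 probe. The members and the IGF2 mRNA-binding proteins lie mainly right of 0, the PI3K, Akt, FoxO and mTOR arm is spread around 0, and Htra1 and Esm1 mark the ends of the range.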

How the data were processed

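The deposited scanner files give, per the file headers, the mean intensity and local background of each spot in both channels from Agilent Feature Extraction 9.1.3.1, processed intensities, and the log10 ratio of Cy5 over Cy3. The value table deposited by the authors holds the same log10 ratios, turned to Scriptaid over Nullscript by the dye fields (largest difference 4.82e-06), with column medians of -0.00959 to -0.00136.

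Mean intensities were corrected with normexp (offset 50) and loess-normalised in limma 3.58.1 (R 4.3.3). Control spots had weight 0 in the loess fit, spots with an outlier mark were dropped, spots of a probe were averaged, and the 2 arrays of a replicate were averaged. Probes that stood well above background for 1 of the drugs on 3 or more of the 6 arrays (39405) were tested against 0 with lmFit and eBayes, with Benjamini-Hochberg adjustment over probes. The brightest probe represents a gene. Levels are values after loess and Aquantile. The test was checked on simulated data. Alternatives for the dye effect (the scanner ratio, outlier spots kept) and the stromal sum without Col1a1 were added after seeing the data. The 2 arrays of a replicate are paired by the labels. Their deviations, taken from each orientation's mean, had correlations of 0.615, 0.131 and 0.0125 for replicates 1, 2 and 3. Arrays of different replicates and opposite dyes had -0.417 to 0.259. The highest of these were between replicates 2 and 3 (0.259 and 0.136), so the pairing within these replicates rests on the labels alone. Slide 1 held replicates 1 and 2, and slide 2 held replicate 3. With the slide as a block, replicate 3 thus stood alone and weighed more than in the main fit. A probe's own spread then came from replicates 1 and 2 only, so calls gained or lost in that fit are weak evidence. The series text speaks of 4 arrays with a dye swap on 2, whereas 6 arrays with dye fields were used here.

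The members and lists were chosen with earlier results of these data known. Named are all members, up to 4 passing genes per list with the largest ratios and the same sign in all replicates, and Igf2, Igf2r, Irs1, Irs2, Grb10 and the 3 Igf2bp genes. Hist1h1c, Cdkn1a, Ccnd1, Socs2, Stat5a and the markers named were chosen after their values were seen.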

Additional observations from a re-analysis of the deposited data

How the results depend on the processing

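Every member probe and named pathway gene was recomputed under up to 17 alternatives in processing. Several of these left the ratios of member probes unchanged, so they add little. They were Aquantile, other filters on dim probes, outlier spots kept, saturated spots left out and 1 probe per gene name. The authors' value table repeats the ratios of the scanner software. The Igf1 probes A_51_P147942 and A_52_P536434, Igfbp1, both Igfbp3 probes, the brightest Igfbp5 probe and Igfbp7 kept their direction and their call under all alternatives run. In the fit of 6 arrays with a replicate block, 7 members were higher by brightest probe and 1 lower; the block changed the calls of the brightest Igf1r probe and of the Igf1 probe A_52_P306327 and of no other member, and Igf2r passed. With median centring, 0 members were lower and 0 member probes were lower, and the Igf1 probe A_52_P306327 turned to -0.042; the cause was not tested. The Igf2 probe saturated in both channels had the other sign (0.41) on the arrays with Scriptaid in Cy3 alone. This value is capped and no measured ratio, and the cause was not tested. The probe is nevertheless among those counted as higher in that setting. In the list of other ligands and receptors, the number higher was 0 with the slide as a block, 2 on the arrays with Scriptaid in Cy3 alone, 0 on those with Scriptaid in Cy5 alone, and 0 to 1 without each replicate in turn. Without each replicate in turn, 2 to 3 adaptors were lower, 2 to 5 genes of the PI3K arm were higher, and 5331 to 7782 of all probes were lower, fewest without replicate 3. With 1 probe per gene name, 6017 of 26770 were higher, since fewer features are tested. Aquantile leaves ratios as they are. The 3 replicates and the signal over background of dim probes limit small differences.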

Other observations

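The array of replicate 3 with Scriptaid in Cy3 gave the highest log2 ratio for several member probes. It had 0.71 for the brightest Igf1r probe, and 0.71 and 0.75 for the Igfbp4 probes. The other array of the same replicate had 0.27, 0.18 and 0.06 for these Igf1r and Igfbp4 probes. The first array was also the highest for the Igfbp3 probe A_52_P253179 (1.57), the Igf1 probe A_52_P306327 (0.25) and Igfbp2 (-0.10). For that Igf1 probe the array of replicate 1 with Scriptaid in Cy3 was nearly equal (0.25). The array of replicate 3 with Scriptaid in Cy5 was in turn the highest for the Igfbp5 probe A_52_P281702 (2.30), Igfbp1 (1.89) and Igfbp7 (0.87).

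The 2 Igfbp4 probes followed each other over the arrays, from -0.03 to 0.71 and from 0.01 to 0.75, whereas the 2 Igfbp5 probes, with the same transcript accession in the array files, ran from 1.70 to 2.30 and from -0.05 to 0.19.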
